A study of Mus musculus with 8 samples.

Results

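The comparison described here set RNA recovered with an antibody to the V5 tag against the input RNA of the same tissue. It rested on 4 of the 8 arrays of the study, the pair titled as V5 precipitates and the pair titled as total RNA. The tissue was testis of male mice at postnatal day 14, of a mixed C57BL/6 and 129SV strain, and in the sample labels the cell type is given as juvenile germ cells of the testis that express Dazl joined to GFP and V5. All 8 samples carried that tagged protein, the input and the mock precipitates included. Input RNA saw no antibody, V5 precipitates were taken with anti-V5, mock precipitates with normal mouse IgG, and a further pair with anti-GFP. Lysates of dissociated testes were used without UV crosslinking, so RNA held in the complex was not fixed to the protein. The promoter that drives the tagged Dazl, the number of animals behind a sample and whether animals were pooled are not given in the sources used here. Whether replicates came from separate animals is likewise not given, so the p-values cover only the variation among these samples, and that variation may be technical.

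Dazl is a germ cell RNA-binding protein with an RNA recognition motif and a DAZ repeat, and it binds the 3′ untranslated regions of messages and acts on their translation and stability. It contacts poly(A)-binding protein, and mice without it lose germ cells. In RNA immunoprecipitation, the ratio of precipitate to input says how a transcript is represented relative to its abundance, and a mock precipitate shows which transcripts are retained or lost without a specific antibody.

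Levels are given as log2 of the background-corrected signal minus the 75th percentile of the same array, so that 0 is the 75th percentile, and a difference of 1 between precipitate and input is a factor of 2. Between 57.2% and 62.2% of the non-control spots of the 8 arrays were well above background and 0 were saturated. Replicate arrays correlated at r = 0.992 for input and 0.993 for V5, and V5 arrays correlated with input arrays at 0.970 to 0.971. Over all genes, the median absolute difference between replicates was 0.08 for input, 0.09 for V5 and 0.16 for IgG. The labels conflicted in places: the free-text descriptions of input replicate 2 and of V5 replicate 1 each name the other kind of RNA, and titles were followed. Per the scan headers the input arrays shared a slide with IgG, and the V5 arrays shared another with GFP, so that slide and group cannot be told apart for V5 against input, while IgG and input can be compared within a slide. Of 8 listed germ cell markers 7 were measured, and all 7 were well above background on both input arrays. Markers of other testis cells were detected too. The same held for 27 of 27 measured Sertoli, 14 of 14 Leydig, 18 of 18 peritubular myoid, 23 of 23 leukocyte and 15 of 15 endothelial markers. Genes were measured only if each array of some group called them well above background, which largely set these counts. On both input arrays 159 of 188 measured olfactory receptor genes also met that call, as did 1750 of 1758 genes in the decile above the lowest of input signal. The counts therefore do not show how much RNA each cell type gave. In RNA from whole tissue, fewer cells of a type and less RNA per cell cannot be told apart.

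The precipitate differed broadly from the input, with about as many transcripts over- as under-represented, and the transcripts lost from it were lost by larger factors than others were gained. Of 17580 genes tested, 12871 differed (73.2%): 6620 were higher in the V5 precipitate (37.7%) and 6251 were lower (35.6%) at an adjusted p below 0.05 (limma fit over the 8 arrays, Benjamini-Hochberg adjustment). At least 2-fold, 1794 genes were higher (10.2%) and 2410 were lower (13.7%). The V5 arrays did not overlap the input arrays for 15772 genes (89.7%). The median difference over all genes was 0.0054. This balance depended on the scaling: with the arrays scaled on their spiked-in control RNA, 4663 genes were higher and 7823 lower, and the median difference was -0.23, and with a normexp background correction the counts were 2974 and 2286 and the median 0.30. Without the arrays of conflicting description, 4723 genes were higher and 4215 lower.

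The mock precipitate also departed broadly from the input. In IgG against input 12878 genes differed (73.3%): 7720 were higher (43.9%) and 5158 lower (29.3%). At least 2-fold, 15.2% were higher and 12.5% lower. The direction of this split depended on the scaling: with spike-in scaling 2755 genes were higher and 9908 lower. The median IgG minus input difference then moved from 0.22 to -0.48. After the normexp correction 3865 were higher and 2411 lower, with a median of 0.39. A small IgG minus input difference, here and below, therefore has no direction that holds under each scaling. The V5 and IgG comparisons use the same input arrays, so the values are set side by side below, and the difference between them was tested as V5 against IgG, where the input cancels. V5 and IgG arrays lay on different slides, so slide and group cannot be told apart in that test either. It passed for 10033 genes (57.1%), 2938 of them higher (16.7%) and 7095 lower (40.4%) with V5. At least 2-fold, 2.39% were higher and 4.45% lower. With spike-in scaling the split turned to 7489 higher and 713 lower, and with normexp 0 genes passed in limma, with 3697 at an unadjusted p under 0.05. The median V5 minus IgG difference moved from -0.21 to 0.26 with spike-in scaling, so that a small difference of V5 from IgG has no direction that holds under each scaling. Without V5 replicate 1 the test passed for 6035 genes, without V5 replicate 2 for 6682, and without the arrays of conflicting description for 1249.

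The GFP precipitate, taken against the other tag of the same protein, was closer to V5. V5 and GFP arrays shared a slide that the IgG arrays did not, so this closeness cannot be told apart from slide. Against input 13229 genes differed (75.3%), 36.2% higher and 39.1% lower, and at least 2-fold 11.3% and 16.4%. V5 against GFP, on a shared slide, passed for 2459 genes (14%), of which 1195 were higher (6.8%) and 1264 lower (7.19%) with V5. The even split depended on the scaling: with spike-in scaling 110 genes were higher and 1178 lower. With the 75th percentile scaling, 51 genes were at least 2-fold higher (0.29%) and 12 lower (0.0683%). This count was not stable: it was 3 without either input array, 5 and 7 without V5 replicates 1 and 2, 145 and 19 without GFP replicates 1 and 2, and 4996 without either IgG array.

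Among single transcripts, the most over-represented ones named here encoded enzymes, regulators and matrix proteins, and whether they share a role was not tested. Usp19, a deubiquitinating enzyme, stood at 2.78 and 2.91 on the input arrays and at 6.02 and 5.91 on the V5 arrays. It was 8.71-fold higher in the precipitate (log2 difference 3.12, SE 0.09, adjusted p = 7.18e-06, limma). The IgG arrays stood higher still, at 6.34 and 6.51. Ppp1r10, a nuclear targeting subunit of protein phosphatase, went from 2.55 and 2.57 to 5.50 and 5.55, a 7.80-fold difference, and IgG gave 5.68 and 5.92. Vars2, which RefSeq names Vars and which encodes a valyl-tRNA synthetase, went from 2.01 and 2.04 to 4.64 and 4.604 with V5 and to 5.10 and 5.32 with IgG. In these 3 genes the V5 and input arrays were far apart, and on this scale the mock arrays lay above the V5 arrays. The order of mock and V5 can change with the scaling here and in the genes below. The median V5 minus IgG difference over all genes moved from -0.21 to 0.26 with spike-in scaling.

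Matrix genes were in the same set. Col6a3, a collagen chain, stood at 0.91 and 0.87 in input and 3.75 and 3.58 with V5, a log2 difference of 2.77 (SE 0.08), against 3.07 with IgG. Tnxb, which encodes tenascin X, differed by 2.67 from input with V5 and by 3.34 with IgG, while its other probe gave 0.39 with V5. Cspg4, a cell surface proteoglycan, differed by 2.26 and 2.75. The kinase gene Cdc42bpb gave 2.46 and 3.12, and the glucose transporter gene Slc2a8 gave 2.30 and 2.70. Rmrp, the noncoding RNA of the RNase MRP ribonucleoprotein, differed from input by 2.30 with V5 and 2.39 with IgG, and V5 against IgG did not pass the test (adjusted p = 0.779, limma). Kifc1, a minus-end directed kinesin whose probe RefSeq assigns to the near-identical Kifc5b, differed by 2.29 with V5, and which of the copies was measured is uncertain.

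For 5 of the 15 highest genes the V5 arrays lay above the IgG arrays, and V5 against IgG passed. Prmt3, an arginine methyltransferase gene, stood at -0.23 and -0.09 in input, 2.38 and 2.22 with V5, and 0.96 and 1.15 with IgG. Its V5 minus IgG difference was 1.25 (adjusted p = 0.000943, limma), but its 3 probes did not move together: V5 minus input was 2.47, 0.28 and -0.38. Dusp14, a dual-specificity phosphatase gene, stood at -2.15 and -1.86 in input, 0.26 and 0.33 with V5, and -0.90 and -0.61 with IgG. The difference of V5 from IgG was 1.05, and its other probe gave 2.89 over input. Zdhhc18, a palmitoyltransferase gene, was 0.61 above IgG. The Notch-responsive gene Nrarp exceeded IgG by 0.60, and E2f2, a transcription factor gene of the cell cycle, exceeded it by 0.61. Tsc22d3, a glucocorticoid-induced gene of the brightest decile of genes, was at 2.71 and 2.70 in input, 5.01 and 4.84 with V5, and 3.42 and 3.54 with IgG, so that V5 exceeded IgG by 1.45 (adjusted p = 0.000753, limma).

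**Figure D1:**
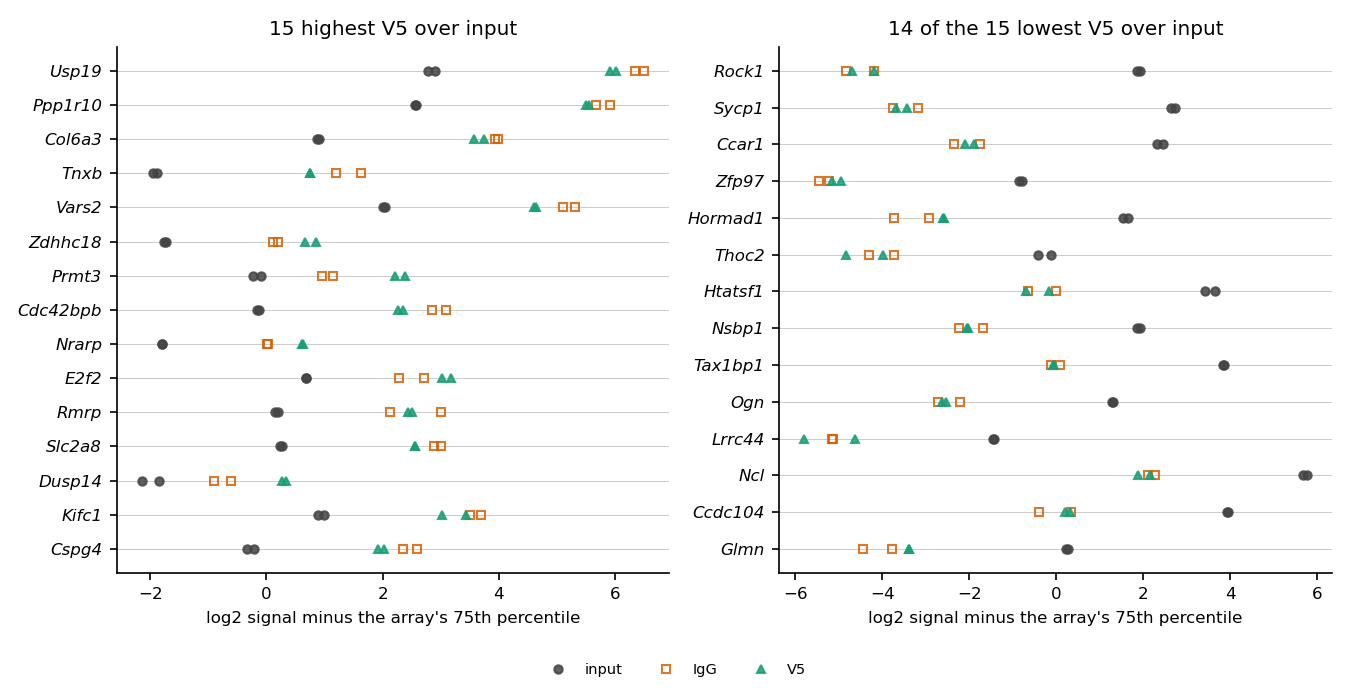
Level of the 15 genes with the highest V5 over input difference and of 14 of the 15 with the lowest on each input, IgG and V5 array (x axis, log2 signal minus the 75th percentile of the array, 1 point per array). The naming rule required input and V5 points not to overlap: Usp19 lies at 2.78 and 2.91 in input and 6.02 and 5.91 with V5, and Rock1 at 1.94 and 1.86 in input and -4.70 and -4.18 with V5, where the IgG points overlap the V5 points.

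The plot of the highest and lowest genes by array shows the wider spread of the losses. Rock1, a protein kinase gene of cytoskeletal control, stood at 1.94 and 1.86 in input and at -4.70 and -4.18 with V5. That is an 80.9-fold lower signal in the precipitate (log2 difference -6.34, SE 0.24, adjusted p = 9.21e-06, limma), and the IgG arrays lay at -4.18 and -4.84. Its other probes gave -4.99 and -3.55. Sycp1, the transverse filament of the synaptonemal complex that joins paired chromosomes, went from 2.74 and 2.64 to -3.69 and -3.43, 76.0-fold lower, and IgG gave -3.18 and -3.75. In both genes the V5 and IgG arrays overlapped, and the V5 against IgG test gave adjusted p = 0.815 for Rock1 and 0.679 for Sycp1 (limma).

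Among the rest of the 15 lowest genes, Ccar1, a coactivator of transcription and apoptosis, differed from input by -4.38 with V5 and -4.45 with IgG. Thoc2, a subunit of the THO complex in messenger RNA export, gave -4.13 and -3.75, and Htatsf1, a splicing and elongation factor, gave -3.96 and -3.86. Ncl, which encodes the nucleolar protein nucleolin, was at 5.77 and 5.68 in input and 1.89 and 2.16 with V5, a difference of -3.70, while its 4 probes ranged from -3.75 to -0.38. Nsbp1, which RefSeq names Hmgn5 and which encodes a nucleosome-binding protein, differed by -3.93, and its other probe by -7.47.

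Hormad1, a protein of the meiotic chromosome axis, went from 1.54 and 1.65 to -2.60 and -2.59 with V5 and to -2.93 and -3.72 with IgG. V5 minus IgG was 0.73 for it (adjusted p = 0.0396, limma). Glmn, a regulator of cullin ligases, differed from input by -3.63, and V5 minus IgG was 0.73 (adjusted p = 0.0211, limma). Tax1bp1, an autophagy receptor gene, differed by -3.91, and Ogn, a matrix proteoglycan gene, by -3.87. Zfp97, a zinc finger gene with near-identical relatives, so that the copy measured is uncertain, differed by -4.23. Lrrc44, which RefSeq names Lrriq3, differed by -3.75, and Ccdc104, which RefSeq names Cfap36, by -3.69. Of those named here, Zfp97, Thoc2 and Lrrc44 no longer passed after the normexp correction, at -1.68, -2.16 and -1.25.

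The brightest decile was taken by the mean level over all 8 arrays, so that a gene could enter it through the precipitates; it differs from the deciles of input signal given further on. Usp19, Ppp1r10 and Vars2 belong to it. Pou3f1, a POU-domain transcription factor gene, rose by 2.25 and Dnmt1, the maintenance DNA methyltransferase gene, by 2.22 over input. With Tsc22d3, these stood at 2.20 to 2.71 in input, below the highest decile of input signal. Lower in the precipitate were Aldh1a1, a retinaldehyde dehydrogenase gene of the retinoic acid pathway (-2.08), Hnrpa3, an hnRNP gene (-2.05), Acta2, smooth muscle actin of myoid cells (-1.99), the chaperone gene Hsp90aa1 (-1.91), Maged2 (-1.82) and the Sertoli homeobox gene Rhox5 (-1.79). Hsp90aa1 stood at 7.56 and 7.64 in input and 5.72 and 5.66 with V5, without overlap.

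Some transcripts were below the detection level on both arrays of one group, so the difference is only a bound, taken from the lowest signal called well above background on each array. Ift74, a gene of intraflagellar transport, was at 0.19 and 0.08 in input and not well above background with V5, and was at least 46.6-fold lower. Kntc2, which RefSeq names Ndc80 and which encodes a kinetochore protein, was at least 43.8-fold lower, and Cep290, a gene of the ciliary transition zone, at least 10.1-fold lower. In the other direction Papln was at least 4.76-fold, Pygo1 at least 3.41-fold and Sv2a at least 1.73-fold higher with V5 than in input, where they were not well above background. These 6 genes lost their call after the normexp correction.

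Transcripts reported elsewhere as bound by Dazl did not stand apart in one direction. The list holds 10 genes chosen from the field's knowledge, Dazl among them. 4 were higher and 6 lower in the V5 precipitate than in input, against 37.7% and 35.6% of all genes. Their median difference was -0.58, beside 0.0054 over all genes. At least 2-fold, 1 gene was higher and 4 were lower, beside 10.2% and 13.7% of all genes.

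Tex19, a germ cell gene that RefSeq names Tex19.1, was the highest of the 10. It stood at 4.13 and 4.12 in input, 6.18 and 6.29 with V5, 5.45 and 5.50 with IgG, and 6.76 and 6.57 with GFP. The V5 minus input difference was 2.11 (SE 0.09, adjusted p = 1.06e-05, limma), IgG minus input was 1.35, and V5 minus IgG was 0.76 (adjusted p = 0.00189, limma). No arrays of these 4 groups overlapped. Tbpl1, a TBP-related factor of spermatid transcription, stood at 4.04 and 4.15 in input, 4.89 and 4.73 with V5, and 3.98 and 3.93 with IgG, so that V5 lay above input and IgG below it. Its V5 minus input difference was 0.71 and its V5 minus IgG difference 0.85, while IgG minus input did not pass (-0.14). V5 against input lost its call after the normexp correction. Sdad1, a ribosome biogenesis gene, gave 4.06 and 3.95 in input, 4.51 and 4.52 with V5, and 3.79 and 3.56 with IgG. V5 minus input was 0.51 at the brighter of its probes and -2.03 at the other, so that the mean over probes turned the difference to -0.76.

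Sycp3, a lateral element protein of the synaptonemal complex, stood at 2.06 and 2.16 in input, -1.37 and -1.38 with V5, -2.51 and -3.13 with IgG, and -1.01 and -1.32 with GFP. It was 11.2-fold lower with V5 than in input (log2 difference -3.48, SE 0.20), and V5 exceeded IgG by 1.45 (adjusted p = 0.00321, limma). The mock arrays were the lowest and the V5 arrays lay between mock and input. Dazl itself showed that order too, at 3.83 and 3.91 in input, 2.84 and 2.71 with V5, 2.01 and 1.58 with IgG, and 3.38 and 3.19 with GFP. Its V5 minus input difference was -1.09 (SE 0.15, adjusted p = 0.000682, limma), IgG minus input was -2.08, and V5 minus IgG was 0.98. Whether its probes also read the transcript of the tagged protein is not given in the sources used here. Ddx4, the germ cell helicase also called Vasa, stood at 4.37 and 4.29 in input, 3.18 on both V5 arrays, and 2.97 and 2.48 with IgG, and its V5 minus input difference was -1.15.

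The remaining reported transcripts were lower or little changed. Grsf1, an RNA-binding protein gene, differed from input by -0.89 with V5 and -1.27 with IgG. Crisp2, a secretory protein gene of sperm, gave -1.57 and -2.07, and lost its call after the normexp correction. Of the cell cycle phosphatase genes, Cdc25a gave 0.34 with V5 and 0.40 with IgG, and Cdc25c gave -0.27 and -0.34. Cdc25c turned to 0.029 after the normexp correction, and lost its call with quantile normalization, without a filter on dim probes, without V5 replicate 1 or input replicate 2 (-0.21 each) and without both of these arrays (-0.15). Cdc25a lost its call with spike-in scaling (0.11), after normexp and without the arrays of conflicting description (0.29). V5 against IgG passed for 7 of the 10, all higher with V5, against 16.7% of all genes higher in that test, and for 0 of the 10 after the normexp correction. Pabpc1, the cytoplasmic poly(A)-binding protein gene, stood at 7.09 and 7.11 in input and 6.22 and 6.45 with V5, a difference of -0.77 (SE 0.12), against -0.54 with IgG.

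**Figure D2:**
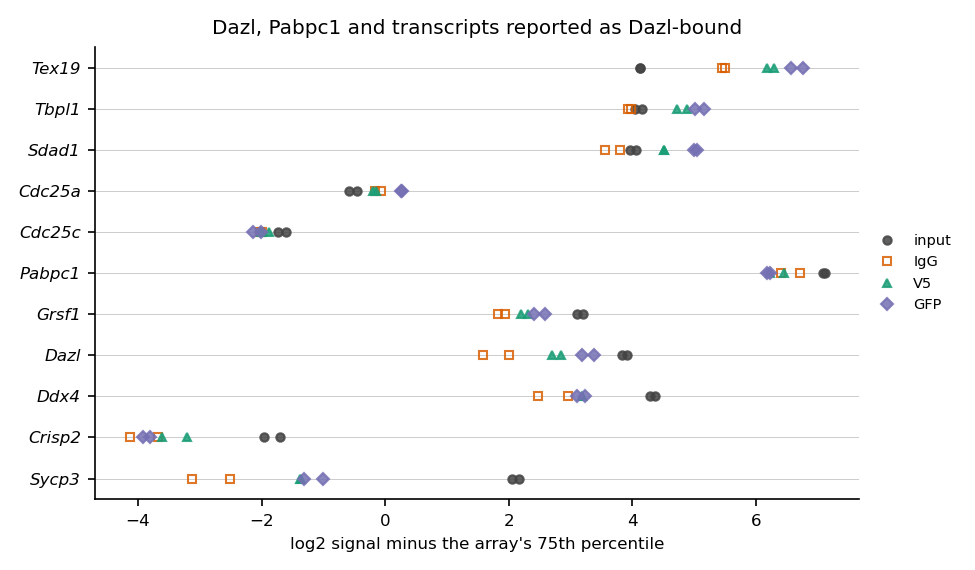
Level of Pabpc1 and the 10 transcripts reported as Dazl-bound, Dazl among them, on all 8 arrays (x axis, log2 signal minus the 75th percentile of the array, 1 point per array, genes ordered by V5 minus input). Tex19 stands highest over input with V5 (6.18 and 6.29 against 4.13 and 4.12), and in Dazl and Sycp3 the V5 points lie between the input and the IgG points.

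Germ cell genes were grouped by stage, and the stages were not tested against each other. Of 19 measured genes of spermatogonia, the mitotic germ cells that include the stem cells, 12 were higher and 3 lower, beside 37.7% and 35.6% of all genes, with a median difference of 0.89 beside 0.0054 for all genes. Kit, a receptor of differentiating spermatogonia, stood at 0.93 on both input arrays, 2.37 and 2.25 with V5, and 1.05 and 1.15 with IgG. It rose by 1.38 (SE 0.08) over input with V5, while its IgG minus input difference of 0.17 did not pass (adjusted p = 0.0885, limma). Lin28, an RNA-binding protein gene that RefSeq names Lin28a, rose by 1.84 over input and exceeded IgG by 1.10. Bcl6b, a transcription factor gene of the stem cells, rose by 1.49, and Dnmt3b, a de novo DNA methyltransferase gene, by 1.20. In V5 against IgG, 11 of the 19 were higher and 2 lower, against 16.7% and 40.4% of all genes. With spike-in scaling 14 were higher and 0 lower, where 7489 of all genes were higher and 713 lower, and after the normexp correction no gene of this or any other group passed.

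Of 31 measured genes of meiotic prophase, 8 were higher and 15 lower, beside 37.7% and 35.6% of all genes. Of the 15, 10 were lower at least 2-fold, as were 13.7% of all genes. Their median was -0.28 and the range ran from -6.25 to 0.91. Besides Sycp1, Sycp3 and Hormad1 these included Tex15, a gene needed for meiotic recombination, which stood at 1.28 and 1.33 in input and -1.17 and -1.14 with V5. The recombination gene Meiob, listed on the array as 4930528F23Rik, differed from input by -1.57 with V5 and -1.56 with IgG. Within the synaptonemal complex the members moved apart. Syce1 fell by 1.20, while Syce2 rose by 0.62 and Tex12 by 0.91, and for Tex12 IgG minus input was -0.49. These last 3 genes were picked after their values were seen.

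Late spermatocyte and spermatid genes belong to stages that are scarce or absent at this age. Of 19 measured, 2 were higher and 12 lower, beside 37.7% and 35.6% of all genes. Their median of -0.33 turned to 0.21 after the normexp correction. Clgn, a chaperone gene of spermatocytes, fell by 1.15 and Crem, a transcription factor gene, by 1.01. Odf2, an outer dense fibre gene, fell by 1.02 at its brightest probe, while its other 2 probes had the opposite sign. The group listed for the piRNA pathway, which silences transposons in germ cells, had 8 of 22 genes higher, near the share of all genes, and 10 lower. Its median was -0.045, beside 0.0054 over all genes. Pld6, listed as 4933433K01Rik, rose by 1.66 and Henmt1, listed as 4921515J06Rik, by 0.99, whereas the Tudor-domain gene Tdrkh fell by 1.82. Tdrd3, a Tudor-domain gene counted in this group whose place in the pathway was not examined, fell by 1.48.

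Genes of pluripotency, the theme of the study's title, had 10 of 23 higher and 5 lower, beside 37.7% and 35.6% of all genes. Their median of 0.19 turned to -0.039 with spike-in scaling. Sall4, Mycn and Tcfcp2l1, transcription factor genes of stem cells, rose by 1.67, 1.31 and 1.15 over input. For Sall4 the arrays read -0.23 and -0.29 in input, 1.44 and 1.39 with V5, and 0.50 and 0.81 with IgG, and the other probe gave only 0.09 over input. Polycomb genes, which encode chromatin repressors, had 21 of 36 higher and 5 lower, beside 37.7% and 35.6% of all genes, with a median of 0.57. With IgG 19 of the 36 were higher than input and 11 lower, near the shares of 43.9% and 29.3% of all genes. Their IgG median was 0.52, beside 0.22 over all genes. Cbx2 stood at 0.05 and 0.09 in input, 2.06 and 2.12 with V5, and 1.86 and 2.0005 with IgG, so the V5 and IgG arrays were close. Cbx7, Yaf2 and Epop, the last listed as E130012A19Rik, rose by 1.65, 1.63 and 1.91. Yaf2 exceeded IgG by 0.95, while V5 minus IgG for Cbx2, Cbx7 and Epop did not pass, at 0.16, -0.19 and -0.06.

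Apoptosis genes had 19 of 37 higher and 11 lower (median 0.26), beside 37.7% and 35.6% of all genes. The initiator caspase genes differed among themselves: Casp9 and Casp2 each rose by 1.34 and Casp8 fell by 2.23. Casp2 stood at 3.57 and 3.65 in input, 4.997 and 4.90 with V5, and 3.97 and 4.13 with IgG. Bcl2l1, an antagonist of cell death, rose by 1.36 with V5 and 1.53 with IgG. In the cell cycle, 29 of 61 genes were higher and 21 lower, the latter near the share of all genes, with a median of 0.22 that turned to -0.0077 with spike-in scaling. Cyclin D1, Ccnd1, stood at 0.13 and 0.17 in input, 2.29 and 2.20 with V5, and 1.07 and 1.39 with IgG. The inhibitor genes Cdkn2c and Cdkn2d rose by 1.27 and 1.32, and the proliferation marker Mki67 fell by 1.98.

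RNA-binding proteins and translation factors had 28 of 64 genes higher and 19 lower, beside 37.7% and 35.6% of all genes. Their median of 0.09 turned to -0.14 with spike-in scaling and to -0.035 with the mean over probes. In V5 against IgG, 32 of the 64 were higher and 8 lower, against 16.7% and 40.4% of all genes, and none passed after the normexp correction. Elavl2, a neuronal-type ELAV protein gene also used in germ cells, stood at 2.18 and 2.21 in input, 3.82 and 3.61 with V5, and 2.07 and 1.84 with IgG. V5 exceeded input by 1.52 and IgG by 1.76, and its other probe gave 0.40 over input. Cpeb1, which controls cytoplasmic polyadenylation, rose by 1.58. Cugbp1, which RefSeq names Celf1, rose by 0.93 with V5, while its IgG minus input difference of 0.12 did not pass (adjusted p = 0.162, limma). Fxr1h, the FXR1 gene, fell by 2.66 at its brightest probe, and its other probes gave -0.49 and -0.97.

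Translation initiation factors had 8 of 45 higher and 29 lower, beside 37.7% and 35.6% of all genes, and a median of -0.41. Eif2s2, the beta subunit of the factor that delivers the initiator tRNA, stood at 4.50 and 4.57 in input, 1.40 and 1.36 with V5, and 1.04 and 0.82 with IgG. It was 8.90-fold lower with V5 than in input. Eif2a fell by 2.73 and Eif3s8, named Eif3c by RefSeq, by 1.69 with all 5 of its probes below 0, while Eif1b rose by 1.62. Genes of the endoplasmic reticulum translocon and its chaperones were split, with 16 of 40 higher and 12 lower, shares near those of all genes. Their median of 0.09 turned to -0.14 with spike-in scaling and -0.064 after the normexp correction. Within the signal recognition particle, Srp14 rose by 1.26 while Srp54 and Srp68 fell by 2.34 and 1.19.

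Housekeeping complexes are set beside the 35.6% of all genes that were lower and the 37.7% that were higher. Of 46 proteasome genes, 29 were lower and 6 higher, with a median of -0.68 with V5 and -0.73 with IgG. Psmd12 stood at 4.89 and 4.94 in input, 2.86 and 2.84 with V5, and 2.89 and 2.84 with IgG, a difference of -2.06 with V5. Psmc2 fell by 1.70 at its brightest probe, but its other probe gave 0.26. Of 79 genes of oxidative phosphorylation, 52 were lower and 7 higher (median -0.36), with Ndufs4 at -1.48 and Ndufs1 at -1.16. Ribosomal protein genes were lower at shares near that of all genes, but a smaller share of them was higher than among all genes. Cytosolic ones had 33 of 83 lower and 11 higher and a median of -0.14, and Rpl4 was the furthest from input at -1.80. Mitochondrial ribosomal protein genes had 34 of 78 lower and 15 higher (median -0.15), among them Mrps22 at -2.03.

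Replication-dependent histones, whose messages carry no poly(A) tail, had 22 of 29 lower and 6 higher, beside 35.6% and 37.7% of all genes. Their median was -0.86. Hist1h2aa stood at 7.66 and 7.74 in input and 6.65 and 6.56 with V5, and Hist1h2ak fell by 1.605. Hist1h4i went the other way and rose by 1.45. Histone genes are near-identical in sequence, so which copy a probe measured is uncertain. Of 7 measured long noncoding RNAs grouped here, Malat1 fell by 2.18. Kcnq1ot1, not well above background with V5, was at least 2.92-fold lower than in input, and turned to 0.19 after the normexp correction. Gtl2, named Meg3 by RefSeq, and H19 rose by 0.84 and 0.52. The group had 4 members higher and 2 lower.

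Markers of somatic cells differed by cell type. Leukocyte markers had 18 of 23 lower and 1 higher (median -0.78), beside 35.6% and 37.7% of all genes, with the protease gene Ctss at -1.80 and the macrophage gene Aif1 at -1.34. Their summed linear level, in multiples of the 75th percentile signal, was 42.7 and 43.2 in input, 23.9 and 25.5 with V5, and 29.8 and 33.9 with IgG. Sertoli markers had 15 of 27 lower and 3 higher (median -0.32), with the receptor gene Fshr at -1.29 and the protease gene Ctsl at -1.09. Their sum was 852 and 883 in input, 718 and 688 with V5, and 887 and 868 with IgG. Leydig markers had 6 of 14 lower and 1 higher and 7 not called, and their sum was 54.6 and 54.5 in input and 53.7 on both V5 arrays, with Akr1b7 at -1.32 and Hsd17b3 at -1.07. Fshr, Hsd17b3, the leukocyte gene Cx3cr1 (-1.84) and the endothelial gene Emcn (-1.44) lost their calls after the normexp correction.

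Of the 7 measured germ cell markers 4 were lower with V5 (Dazl, Ddx4, Sycp3 and Stra8) and 3 higher (Kit, Dmrt1 and Tex19). Their summed level was 136 and 135 in input, 159 and 165 with V5, and 94.95 and 92.8 with IgG. Without Tex19 the sum was 119 and 118 in input, 86.7 on both V5 arrays, and 51.1 and 47.6 with IgG, so that its rise with V5 rested on that gene. Peritubular myoid markers were split by gene: 12 of 18 were lower and 6 higher (median -0.92), beside 35.6% and 37.7% of all genes. Their sum was 279 on both input arrays and 239 and 249 with V5. Acta2 fell by 1.99 and the tropomyosin genes Tpm1 and Tpm2 by 1.76 and 1.91, whereas the collagen genes Col3a1 and Col1a1 rose by 2.06 and 1.76. Endothelial markers had 4 of 15 higher and 4 lower, with a sum of 15.3 on both input arrays and 17.9 and 17.7 with V5, and their median of -0.050 turned to 0.072 with quantile normalization and 0.39 after the normexp correction, and to 0.057 with only probes above background on all arrays. Of 5 erythroid genes 1 was higher and 2 lower, with a sum of 56.1 and 57.2 in input and 36.0 and 32.8 with V5, with the near-identical globin genes Hba-a1 and Hbb-b1 at -0.67 and -0.77, and the median of -0.41 turned to 0.11 after the normexp correction. The part of somatic RNA in these differences was not tested.

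Collagen genes were over-represented as a group, with 25 of 37 higher and 4 lower, beside 37.7% and 35.6% of all genes. At least 2-fold higher were 17, beside 10.2% of all genes. Their median was 0.82 with V5 and 1.10 with IgG. Col3a1 stood at 3.65 and 3.66 in input, 5.74 and 5.70 with V5, and 5.93 and 5.91 with IgG. Col5a2 rose by 1.46 with V5 and 1.66 with IgG. In the zinc finger family, 126 of 322 genes were higher, near the share of all genes, and 146 lower. The median of -0.16 turned to 0.25 after the normexp correction and to 0.17 with only probes above background on all arrays. Zfp277 fell by 2.32 and Zfp68 by 2.70 there. Zfp987, listed as MGC117846 and near-identical to Zfp97, was at least 31.8-fold lower with V5 than in input, and lost its call after the normexp correction. Of 908 listed olfactory receptor genes, 188 passed the filter on dim signals, and 159 of these were well above background on both input arrays. Of the 188, 74 were lower and 6 higher with V5, beside 35.6% and 37.7% of all genes. Genes this dim could pass the filter through input or IgG alone, so a lower level with V5 could be fixed by the filter. Their median of -0.56 turned to 0.62 after the normexp correction.

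**Figure D3:**
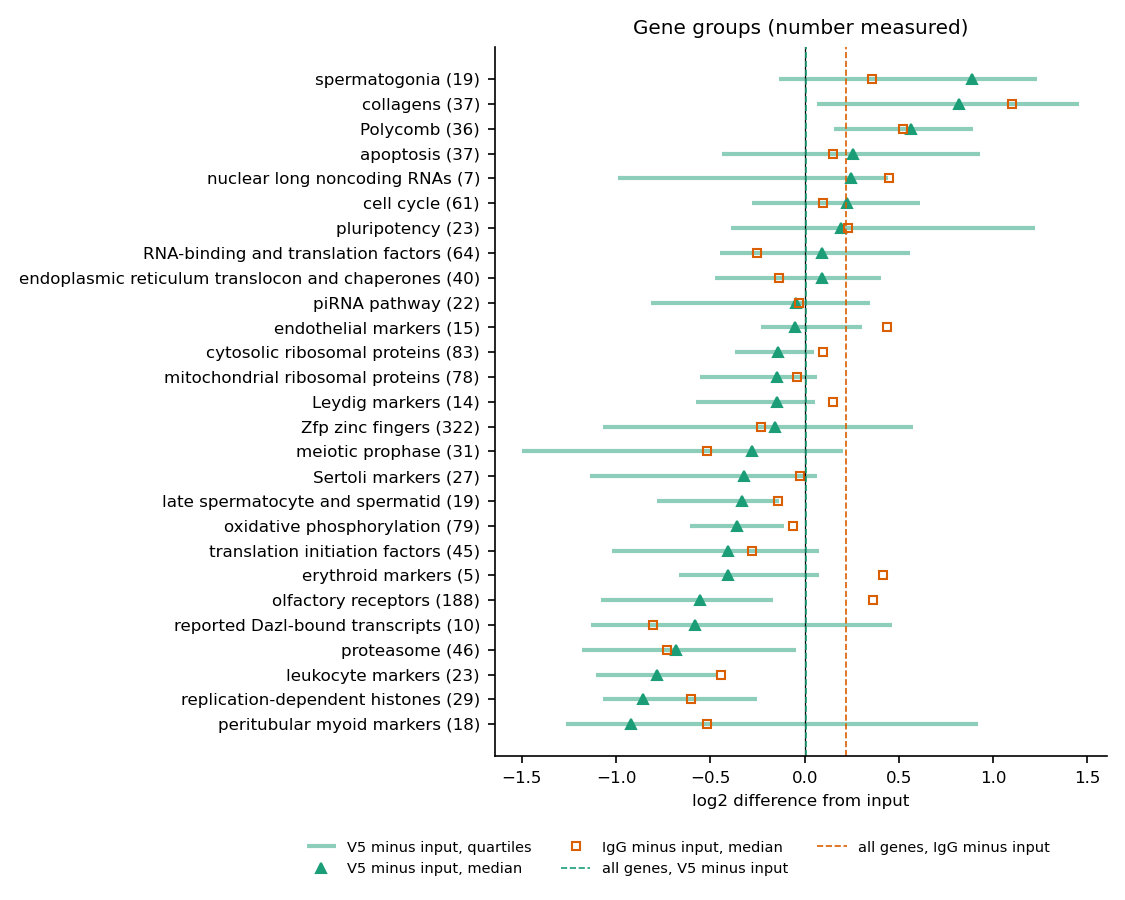
Median log2 difference from input for each gene group with V5 (triangles, bars from the lower to the upper quartile over genes) and with IgG (open squares), with the number of genes measured in brackets and dashed lines for the medians over all genes. Spermatogonia and collagens lie highest with V5, at 0.89 and 0.82, and peritubular myoid markers and replication-dependent histones lowest, at -0.92 and -0.86, while the IgG medians of the 4 groups are 0.36, 1.10, -0.52 and -0.60.

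Some genes lay above input with V5 and below it with IgG, and others the reverse. The 9 genes shown here were picked after values were seen, out of the 10 with the highest V5 over input difference among genes measured above background in all of V5, IgG and input, with V5 above input, IgG below input, and the difference of both called. Eef1e1, an auxiliary protein of the tRNA synthetase complex, stood at 2.71 and 2.87 in input, 4.13 and 3.93 with V5, 2.44 and 2.32 with IgG, and 4.63 and 4.45 with GFP. Its V5 minus input difference was 1.24, its IgG minus input difference -0.41, and its V5 minus IgG difference 1.65 (SE 0.11). That choice fixed V5 above IgG on these arrays, so the V5 minus IgG values are a description and their test adds nothing to it. The V5 and GFP arrays lay above, and the IgG arrays below, both input arrays.

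Pmaip1, a pro-apoptotic gene also called Noxa, stood at 0.32 and 0.31 in input, 1.41 and 1.24 with V5, and -0.22 and -0.31 with IgG, with V5 minus IgG of 1.59. Ube2b, a ubiquitin-conjugating enzyme gene needed for spermatogenesis, stood at 4.39 and 4.44 in input, 5.43 and 5.27 with V5, and 4.23 and 4.03 with IgG. In each of these genes the IgG, input and V5 arrays did not overlap. Rnf138, a ubiquitin ligase gene, had the widest gap of the 9, with V5 minus IgG of 1.79, but with the mean over its probes V5 minus input was 0.26 and no longer passed. Sypl, Ube2b and Mbtps2 lost their V5 against input call in 1 alternative each. The other members were Adi1, a gene of methionine salvage (1.46), the protease gene Mbtps2 (1.69), the chaperone gene Dnajc12 (1.31), and the membrane protein genes Yipf6 (1.49) and Sypl (1.59), each given as V5 minus IgG. After the normexp correction 7 of the 9 had V5 above and IgG below input. The 10 genes picked in the same way for V5 below and IgG above input are not described singly here. Of these, 0 stayed on opposite sides with spike-in scaling and 4 after the normexp correction.

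**Figure D4:**
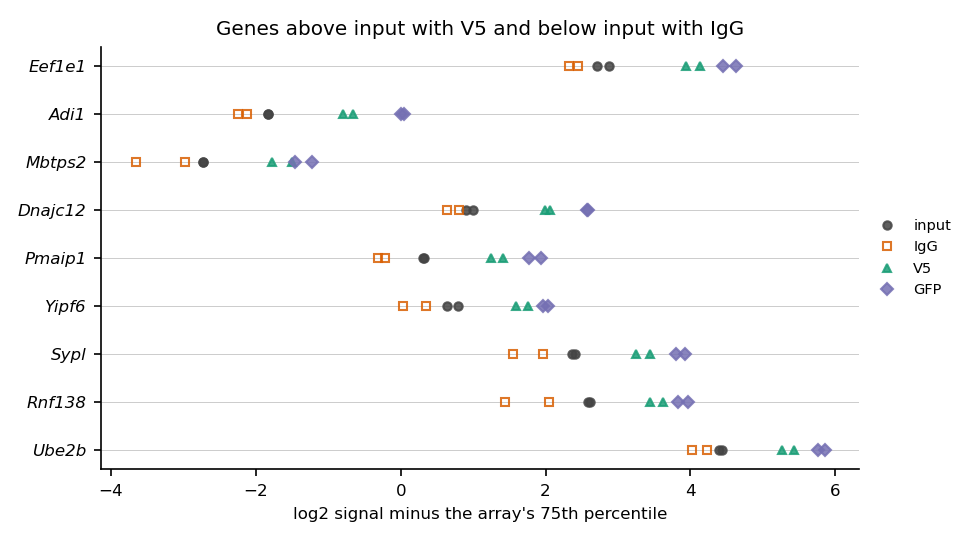
Level of the 9 genes that lay above input with V5 and below input with IgG, on all 8 arrays (x axis, log2 signal minus the 75th percentile of the array, 1 point per array). For Eef1e1 the IgG points (2.44 and 2.32) lie left of input (2.71 and 2.87) and the V5 points (4.13 and 3.93) right of it.

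Representation in the precipitate was also described by input signal. Genes were ordered by their level on one input array and the ratio was taken against the other, so that noise of 1 array did not enter both. The median V5 over input difference was -0.18 in the lowest decile and -0.34 in the decile above it. It reached 0.13 in decile 7 and was -0.070 in the highest decile. With the input arrays exchanged, the lowest and highest deciles gave -0.10 and -0.017. The quartiles within a decile lay further apart, from -0.60 to 0.42 in the highest. In the lowest decile 1200 of 1758 genes were well above background on both input arrays and 940 on both V5 arrays. In the decile above it these counts were 1750 and 1404. Genes this dim could pass the filter through a single group, so the medians of these deciles could be partly fixed by the filter.

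Medians were lower for longer genes. Over quintiles of the genomic length of protein-coding genes, from short to long, the medians were 0.095, 0.18, 0.083, -0.017 and -0.19 with V5, and 0.41, 0.38, 0.20, 5.77e-05 and -0.11 with IgG. In the longest quintile, 29.4% of genes were higher and 44.7% lower, beside 39.0% and 34.7% of all protein-coding genes. Transcripts annotated as long noncoding had a median of 0.36 over 367 genes, with 184 higher and 79 lower, beside 37.7% and 35.6% of all genes. With IgG their median was higher, at 0.53, beside 0.22 over all genes. The V5 minus IgG median was -0.23, beside -0.21 over all genes. Genes on the X chromosome were lower than those on autosomes. Of 540, 118 were higher (21.9%) and 293 lower (54.3%), beside 40.0% and 33.6% of 14554 autosomal genes. Their median was -0.41, beside 0.057 over the autosomal genes. The X chromosome median was -0.38 with IgG. Of 8 genes on the Y chromosome, 7 were lower and 0 higher, beside 33.6% and 40.0% of autosomal genes. Among autosomes the medians ran from -0.27 on chromosome 13 to 0.21 on chromosome 15.

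**Figure D5:**
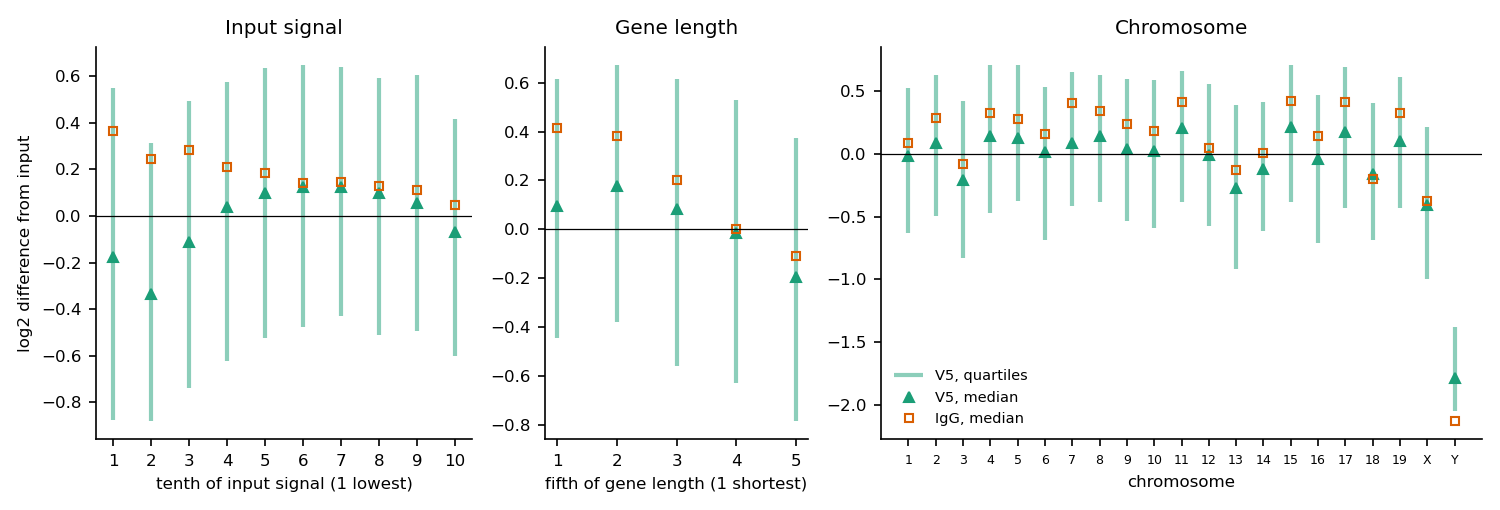
Median log2 difference from input by decile of input signal, by quintile of gene length and by chromosome, with V5 (triangles, bars from the lower to the upper quartile over genes) and with IgG (open squares). The V5 medians fall from 0.18 in quintile 2 of gene length to -0.19 in the longest, and the X chromosome lies at -0.41 and the Y chromosome, with 8 genes, at -1.78.

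Probes of one gene did not always agree. Of 5301 genes with at least 2 probes above background on the V5 and input arrays, 29.2% had probes on both sides of 0, the median range between probes was 0.46, and 19.3% had probes that differed by at least 1. In the authors' deposited table of group means, the V5 over input ratio had the same sign as here for 87.6% of 10265 genes compared. The authors' deposited ratios were higher by a median of 0.27, and after that shift was removed the median absolute difference was 0.012, so which side of 0 a small difference falls on depends on the centring.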

How the data were processed

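RNA of 4 groups of 2 samples was labelled with Cy3 and hybridised to one-colour Agilent mouse arrays. The authors deposited scanner output of Feature Extraction version 9.1.3.1, per the file headers, whose processed spot intensity is background-corrected, and a table of group means of normalized signal, per the file headers. How the authors centred that deposited signal is not given in the sources used here, and 6 other value columns of it were not used. Genes were named by the array's own symbols, and RefSeq symbols were added by accession or symbol, for 15103 of 17580 genes.

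The log2 of each non-control spot's intensity was taken minus the 75th percentile of its array. Spots of a probe were averaged. Of 41174 probes, 50 with an outlier flag were left out, and 25597 were kept because each array of some group (1 or more) called them well above background. A gene took its brightest probe, and its other probes are given where they disagree. A group-mean model over all 8 arrays was fitted in limma 3.58.1 (R 4.3.3) with moderated tests, two-sided, adjusted by Benjamini-Hochberg at 0.05. An exact permutation test of 2 against 2 arrays cannot go below p = 0.333. The number of arrays limits the precision. The script was tested on simulated data.

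The gene groups and members were chosen with earlier results of these data known. Named genes were the 15 highest and 15 lowest called genes whose arrays did not overlap, 6 each way of the brightest decile, 3 each way with a bound, the reported Dazl-bound transcripts with Dazl and Pabpc1, and up to 4 members of each group with the smallest p. Members outside this rule are named as picked after their values were seen. The series text names an anti-PABP1 precipitate where the sample labels name GFP, and the sample labels were followed. No probe sequences were used here. Results for a few genes that met the naming rules are not reported here. The alternatives were 19 settings of scaling, background, filter, probe summary, array set and replicate block, and an exchange of the input arrays for the signal deciles.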

Additional observations from a re-analysis of the deposited data

Results flagged for a closer look

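The following genes lay on opposite sides of input with V5 and with IgG, each of the 3 tests passed, and the difference between them is V5 against IgG in limma. Each gene was flagged for these opposite sides and passed tests, so the side of IgG on which V5 lay was fixed by the choice. The V5 against IgG test is therefore no independent support for any of them. Sdad1 and Olfr374 were also named by other rules. V5 and IgG arrays lay on different slides. V5 minus IgG was 1.65 for Eef1e1, 1.46 for Adi1, 1.69 for Mbtps2, 1.31 for Dnajc12, 1.59 for Pmaip1, 1.49 for Yipf6, 1.59 for Sypl, 1.79 for Rnf138 and 1.22 for Ube2b. Sdad1, a reported Dazl-bound transcript, gave 0.84, with V5 minus input of 0.51 and IgG minus input of -0.33. Olfr374, an olfactory receptor gene near background, gave -1.52, with V5 minus input of -1.19 and IgG minus input of 0.34.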

How the results depend on the processing

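Of 150 genes named by the rule, 119 kept their direction and their side of the threshold in V5 against input in every alternative that gave a value, 26 lost their call in at least 1, 18 of these only after the normexp correction, and 8 reversed. Reversed genes were Sdad1 with the mean of probes (-0.76) and, after the normexp correction, Cdc25c (0.029), Kcnq1ot1 (0.19), Pecam1 (0.64), Olfr683 (0.23), Olfr507 (0.31), Olfr127 (0.31) and Olfr374 (0.33). Group medians reversed with spike-in scaling for pluripotency (-0.039), RNA-binding and translation factors (-0.14), the cell cycle (-0.0077) and the endoplasmic reticulum (-0.14); after the normexp correction for late spermatocyte and spermatid genes (0.21), the endoplasmic reticulum (-0.064), endothelial (0.39) and erythroid (0.11) markers, zinc fingers (0.25) and olfactory receptors (0.62); with the mean of probes for RNA-binding and translation factors (-0.035); with quantile normalization for endothelial markers (0.072); and with only probes above background on all arrays for endothelial markers (0.057) and zinc fingers (0.17). After the normexp correction 2974 genes were higher and 2286 lower with V5 than in input, 6276 differed between IgG and input, and in limma 0 differed between V5 and IgG (3697 at an unadjusted p under 0.05) and 0 between V5 and GFP (803). Leaving out 1 array at a time gave 5767 to 6876 genes higher and 5208 to 6514 lower with V5 than in input, 11363 to 12994 differing between IgG and input, 6035 (without V5 replicate 1) to 10629 between V5 and IgG, and 3 (without either input replicate) to 4996 (without either IgG replicate) between V5 and GFP, where the comparison as analysed gave 2459. A lone array was then assumed to vary like the other groups. Without both arrays of conflicting description 1249 genes differed between V5 and IgG and 4 between V5 and GFP. For V5 against GFP the count was 1288 with spike-in scaling, 3758 with local background subtraction, 4 without a filter on dim probes, 3865 with probes above background on all arrays and 2 with only the groups compared. The median V5 over input difference over all genes was 0.043 with median scaling, -0.23 with spike-in scaling, 0.081 with quantile normalization, 0.30 after normexp, -0.017 with local background subtraction, -0.071 without a filter, 0.082 with probes above background on all arrays and -0.040 with the mean of probes. The lowest and highest deciles of input signal gave -0.10 and -0.017 with the input arrays exchanged. With spike-in scaling 37.3% of called genes were higher in V5 than in input, against 51.4%. Same-numbered arrays did not deviate together (r = -0.075 for V5 and input), and with the replicate block 6566 genes were higher and 6151 lower with V5 than in input, and 794 differed between V5 and GFP. Local background subtraction was added after the data were seen. The causes were not tested. Signals near background limit the values of dim genes.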
